A study of Mus musculus with 10 samples.

Results

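Polyunsaturated fatty acids with long chains are built in the liver from dietary precursors by desaturases, which insert double bonds, and by elongases, which add carbon units. This account covers 8 mouse genes of fatty acid desaturation and elongation, not all of them specific to polyunsaturated chains. The genes were chosen by name, with earlier results of these data known. They are the desaturases Fads1 and Fads2, the condensing enzymes of elongation Elovl1, Elovl2, Elovl3 and Elovl5, and the reductases Hsd17b12 and Tecr. The reductases complete every elongation cycle. All 8 were found among the 24972 gene symbols of the deposited table, and all 8 had the mean level of at least 10 over the libraries that was required for testing. RNA came from whole livers of tumour-bearing mice whose genotype is given as WT. In the T cell-low group (4 libraries) the tumour was the pancreatic cancer line 6419c1, and in the T cell-high group (6 libraries) it was the line 6555c3, both derived from the KPC mouse model of pancreatic ductal adenocarcinoma and each a single line, so that T cell class and line cannot be told apart. The labels state neither age nor sex, nor whether each library is a mouse of its own, so the p-values describe variation among libraries that may be partly technical.

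FADS2 acts first on linoleic and alpha-linolenic acid, and FADS1 acts after one elongation step to give arachidonic and eicosapentaenoic acid. ELOVL5 carries out the elongation between these desaturations, and ELOVL2 elongates the products further towards docosahexaenoic acid. ELOVL1 and ELOVL3 lengthen saturated and monounsaturated chains, those of ELOVL1 serving sphingolipids. In mice Elovl3 is known for a daily rhythm in the liver and for higher expression in males.

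The libraries read the 3′ ends of transcripts, and the values are scaled counts, that is, gene counts that the authors brought to a common depth and that are no longer whole numbers. Libraries of the T cell-low group had scaled totals of 7060777 to 8257373 and 13370 to 14300 genes above 0, and those of the T cell-high group had 7000659 to 7513620 and 13506 to 14080. Read depth is unknown, so no counting error is given. Some libraries stood apart. T cell-low 1 had a mean correlation over genes of 0.861 with its own group and of 0.936 with the T cell-high libraries, and T cell-high 1, 3, 5 and 6 are known from earlier results of these data to differ from the remaining libraries. Hbb-bs, a beta globin gene among the erythroid markers, had 3465 to 9359 scaled counts in those 4 and 16.2 to 215 in the other 6 libraries. Results are therefore also given without these libraries. Hepatocyte markers were present (7 of 8 symbols listed, summing to 391450 to 579200 per T cell-low library and 264410 to 523660 per T cell-high library, 2 of 7 higher). Neutrophil markers moved with the groups (4 of the 8 could be tested and all 4 rose, summing to 640 to 1720 per T cell-low library and 39.8 to 211 per T cell-high library, none at 0 in all libraries). Stellate cell markers (1 of 6 higher) summed to 3523 to 5639 per T cell-low library and 2574 to 3358 per T cell-high library. For sinusoidal endothelial markers (2 of 6 higher, and 3 lower at an unadjusted p below 0.05) the T cell-low sums were 2066 to 2413 and the T cell-high sums 1860 to 2733, and for erythroid markers (1 of 5 higher) they were 43059 to 98122 and 19679 to 51917. Of the tested Kupffer cell (6), cholangiocyte (3) and adipocyte (3) markers 0 passed in limma, with 0, 1 and 0 at an unadjusted p below 0.05. The part of these cells in the results was not tested. In whole tissue, fewer cells of a type and less RNA per cell cannot be told apart.

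The windows before the starts of 2 of the genes that fell in T cell-low livers, Fads2 and Elovl5, are shown beside those of Hsd17b12 and Tecr, which did not pass the test, so that their sequences can be compared. Each line gives the 250 bases before the annotated start, read 5′ to 3′ on the gene's strand, from RefSeq on GRCm38.p6, in which 6 of the 8 genes were matched. Capitals mark CCAAT (or ATTGG, its reverse complement), the E-box CACGTG and the GC box GGGCGG, each searched on both strands.
Fads2: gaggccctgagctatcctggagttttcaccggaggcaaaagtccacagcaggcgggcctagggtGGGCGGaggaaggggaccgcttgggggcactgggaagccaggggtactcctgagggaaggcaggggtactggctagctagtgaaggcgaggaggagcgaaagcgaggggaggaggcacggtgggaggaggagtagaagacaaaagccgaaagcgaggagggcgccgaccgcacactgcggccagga
Elovl5: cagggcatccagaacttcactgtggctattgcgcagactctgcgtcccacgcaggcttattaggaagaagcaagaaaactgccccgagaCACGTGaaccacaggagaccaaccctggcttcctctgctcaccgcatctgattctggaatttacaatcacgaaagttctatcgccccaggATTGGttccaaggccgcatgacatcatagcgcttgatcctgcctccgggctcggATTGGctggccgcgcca
Hsd17b12: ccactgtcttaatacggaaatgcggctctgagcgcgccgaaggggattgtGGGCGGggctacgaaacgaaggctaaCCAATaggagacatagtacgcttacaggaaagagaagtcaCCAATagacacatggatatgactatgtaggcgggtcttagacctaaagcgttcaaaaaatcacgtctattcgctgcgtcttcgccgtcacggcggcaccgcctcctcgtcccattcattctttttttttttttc
Tecr: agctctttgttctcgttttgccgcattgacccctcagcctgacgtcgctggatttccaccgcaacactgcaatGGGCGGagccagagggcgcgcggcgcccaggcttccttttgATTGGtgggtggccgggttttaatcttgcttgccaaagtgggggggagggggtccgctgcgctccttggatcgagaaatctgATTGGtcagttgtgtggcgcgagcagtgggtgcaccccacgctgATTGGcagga

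The Fads2 window lies at chr19:10101504-10101753 on the minus strand and the Elovl5 window at chr9:77917115-77917364 on the plus strand. The Hsd17b12 window is chr2:94157910-94158159 and the Tecr window chr8:83594492-83594741, both on the minus strand. The RefSeq starts of Fads2, Hsd17b12 and Tecr lie inside the GENCODE spans of these genes. The Tecr window, nearly all of the Fads2 window and a smaller part of the Hsd17b12 window therefore lie within the annotated gene. Elovl5 held the E-box, 161 to 156 bases before the start, which 6.02% of 32851 windows of the same length in the mouse set hold on either strand. Elovl5 held 2 CCAAT motifs as ATTGG, Hsd17b12 held 2 as CCAAT and Tecr held 3 as ATTGG, and 33.8% of all windows hold at least 1. Fads2, Hsd17b12 and Tecr each held 1 GC box, found in 32.7% of windows. The sterol response motif TCACNCCAC (1.05% of windows) and the nuclear receptor repeats AGGTCANAGGTCA (0.0335%) and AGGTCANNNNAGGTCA (0.0152%) were in none of these 4 windows. No marked motif overlaps another here.

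Transcripts of 4 of the 8 genes fell in T cell-low livers, and 0 rose. At an unadjusted p below 0.05 in limma, 6 were lower and 0 higher, beside 3830 of all 11110 genes tested in either direction. The 4 that passed at an adjusted p below 0.05 were Fads1, Fads2, Elovl5 and Elovl3, and the 4 that did not pass were Elovl2, Elovl1, Hsd17b12 and Tecr. Of all 11110 genes tested, 12.8% changed by the same rule, 7.39% falling and 5.39% rising (adjusted p below 0.05 in limma, Benjamini-Hochberg over all genes tested). The median log2 fold change, T cell-low over T cell-high, was -1.36 over the 8 genes and 0.003 over all genes tested, and it was below 0 for each of the 8. The count depended on single libraries. With T cell-low 2 or T cell-low 4 removed, Fads2 alone passed (1 of 8), where 0.613% and 0.965% of all genes tested were called lower. Removal of T cell-low 1 gave 6, with Elovl2 and Hsd17b12 added, where 17.2% of all genes were called lower. With T cell-high 1, 3, 5 and 6 left out, 0 of the 8 passed (6 were lower at an unadjusted p below 0.05), and neither did any other gene in limma (1027 at an unadjusted p below 0.05).

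**Figure D1:**
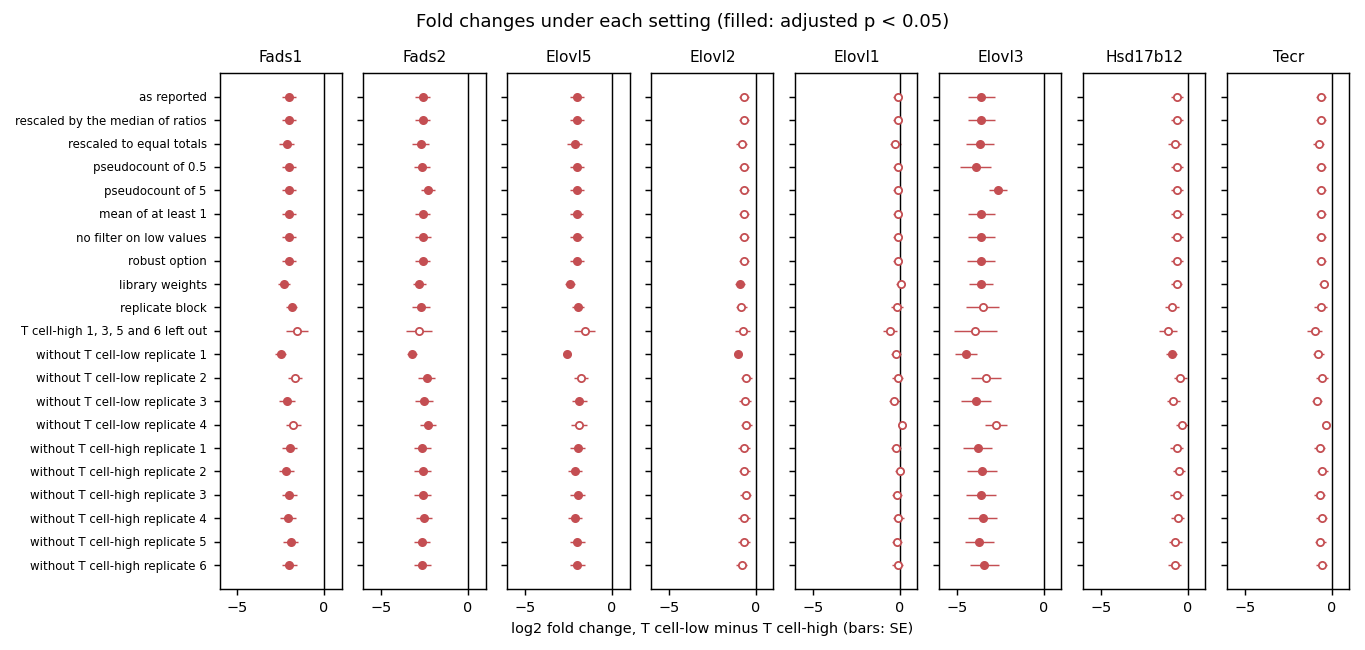
Log2 fold change of each of the 8 genes (panels; bars are the SE) under each processing setting and with each library left out (rows); filled points have an adjusted p below 0.05. Fads2 stays filled with any single library left out (-3.21 to -2.29), and with T cell-high 1, 3, 5 and 6 left out together no point is filled.

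**Figure D2:**
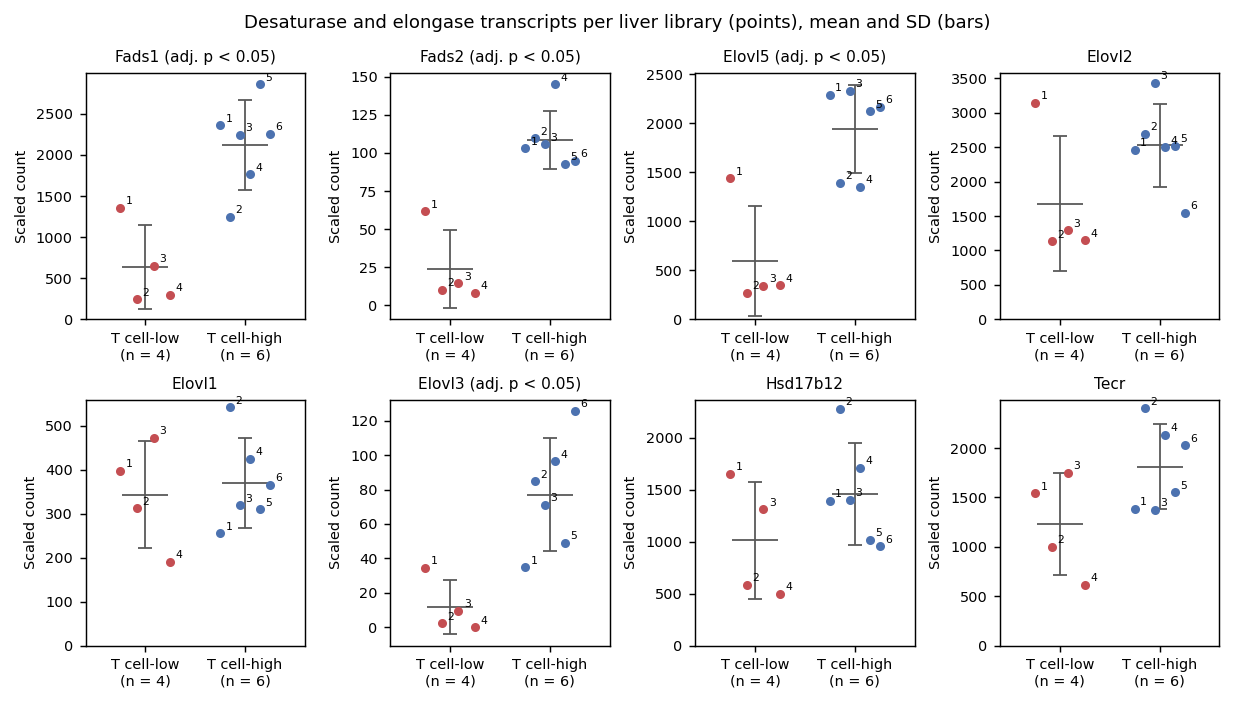
Scaled counts of the 8 genes in each liver library (y axis, linear, one panel per gene), with T cell-low libraries in red on the left and T cell-high libraries in blue on the right, numbered by replicate; horizontal bars are means and error bars the SD (n = 4 and n = 6). In Fads2 all 4 T cell-low points lie below all 6 T cell-high points, and in Elovl2 T cell-low 1 (3139) lies among the T cell-high points.

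Fads1 and Fads2 are neighbours on chromosome 19 (mm10), on opposite strands and pointing away from each other. Fads1 spans 10182888 to 10196877 on the plus strand and Fads2 10062765 to 10101746 on the minus strand, with 81142 bases between their starts. Fads1 had 1356, 246, 653 and 302 scaled counts in T cell-low 1 to 4, against 2362, 1246, 2242, 1763, 2858 and 2257 in T cell-high 1 to 6. Of the T cell-low libraries 3 lay below every T cell-high library, and T cell-low 1 lay above T cell-high 2. T cell-low livers averaged 639 ± 511 and T cell-high livers 2121 ± 553 (SD, n = 4 and 6; log2 change -2.02, SE 0.41, adjusted p = 0.0169).

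Fads2 had 61.7, 10.1, 14.6 and 8.18 scaled counts in T cell-low 1 to 4, against 103, 109.5, 106, 145, 93.0 and 94.9 in T cell-high 1 to 6. The groups did not overlap, which was so, in the direction of lower T cell-low values, for 4.02% of all genes tested. The mean of the T cell-low livers was 21.8% of that of the T cell-high livers (23.7 ± 25.5 and 109 ± 18.9, SD, n = 4 and 6) and the log2 change was -2.61 (SE 0.45, adjusted p = 0.0104). Among the 8 genes Fads2 was the one that passed with any single library left out, with fold changes between -3.21 and -2.29 and adjusted p between 1.8e-05 and 0.0464. Its 3′ end is nearly unique, with 0.496% of its 50-base words also in Fads3, another gene of the cluster.

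Elovl5, on chromosome 9 (77917364 to 77984519, plus strand), moved much as Fads1 did. It had 1441, 271, 340 and 347 scaled counts in T cell-low 1 to 4, against 2295, 1394, 2334, 1351, 2123 and 2172 in T cell-high 1 to 6. T cell-low 2, 3 and 4 lay below every T cell-high library, whereas T cell-low 1 lay just above T cell-high 2 and 4. The means were 599.5 ± 562 and 1945 ± 450 (T cell-low and T cell-high; log2 fold change -2.03, SE 0.40, adjusted p = 0.0143).

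The T cell-high libraries were themselves uneven, and not in the same direction for every gene. T cell-high 2 and 4 had the lowest T cell-high values of Fads1 (1246 and 1763) and of Elovl5 (1394 and 1351), whereas they had the highest of Fads2 (109.5 and 145). They also had the highest T cell-high values of Elovl1 (542 and 424), Hsd17b12 (2277 and 1713) and Tecr (2402 and 2132). Set against T cell-high 2 and 4 alone, the log2 fold change was -1.55 (SE 0.62) for Fads1, -1.56 (SE 0.60) for Elovl5 and -2.84 (SE 0.74) for Fads2, with adjusted p = 0.527 for each. Without T cell-low 1 the values were -2.49 (SE 0.32, adjusted p = 2.4e-04), -2.58 (SE 0.23, adjusted p = 2.0e-05) and -3.21 (SE 0.27, adjusted p = 1.8e-05), in the same order. Fads1 and Elovl5 lost their call when T cell-low 2 was removed (-1.67 and -1.77, adjusted p = 0.0646 and 0.0615) and when T cell-low 4 was (-1.77 and -1.89, adjusted p = 0.0653 and 0.0564).

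Elovl2, on chromosome 13 (41182381 to 41220405, minus strand), did not pass the test. It had 3139, 1130, 1292 and 1147 scaled counts in T cell-low 1 to 4, against 2460, 2689, 3435, 2494, 2519 and 1544 in T cell-high 1 to 6. T cell-low 2, 3 and 4 lay below every T cell-high library, while T cell-low 1 lay above 5 of the 6. The log2 fold change was -0.70 (SE 0.30, adjusted p = 0.12), and without T cell-low 1 it was -1.05 (SE 0.22, adjusted p = 0.00475).

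Whether the 2 elongases of polyunsaturated chains changed unequally was tested on their ratio within each library, in which any scaling of a library cancels apart from the added pseudocount. The log2 ratio of Elovl2 over Elovl5 was 1.12, 2.06, 1.92 and 1.72 in T cell-low 1 to 4, against 0.10, 0.95, 0.56, 0.88, 0.25 and -0.49 in T cell-high 1 to 6. The groups did not overlap, and T cell-low 1 was the T cell-low library nearest to the T cell-high ones. T cell-low livers averaged 1.71 ± 0.41 and T cell-high livers 0.37 ± 0.54, a difference of 1.33 (p = 0.00952, adjusted p = 0.019 over 4 ratios, exact two-sided permutation test over 210 assignments). Elovl5 transcripts thus fell relative to Elovl2 transcripts of the same livers. With T cell-high 2 and 4 alone as comparators the difference was 0.79, in a design whose smallest possible p is 0.0667.

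The log2 ratio of Fads2 over Fads1 did not pass. T cell-low livers averaged -4.84 ± 0.47 and T cell-high livers -4.25 ± 0.57 (SD, n = 4 and 6), a difference of -0.59 (p = 0.129, adjusted p = 0.171 over 4 ratios, exact two-sided permutation test). T cell-high 2 and 4 had the highest ratios of all libraries (-3.50 and -3.60), and the other 4 T cell-high libraries (-4.93 to -4.39) overlapped the T cell-low ones (-5.39 to -4.44). With T cell-high 1, 3, 5 and 6 left out the difference was -1.29 (adjusted p = 0.178, exact permutation test), and with a pseudocount of 5 it was -0.31.

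**Figure D3:**
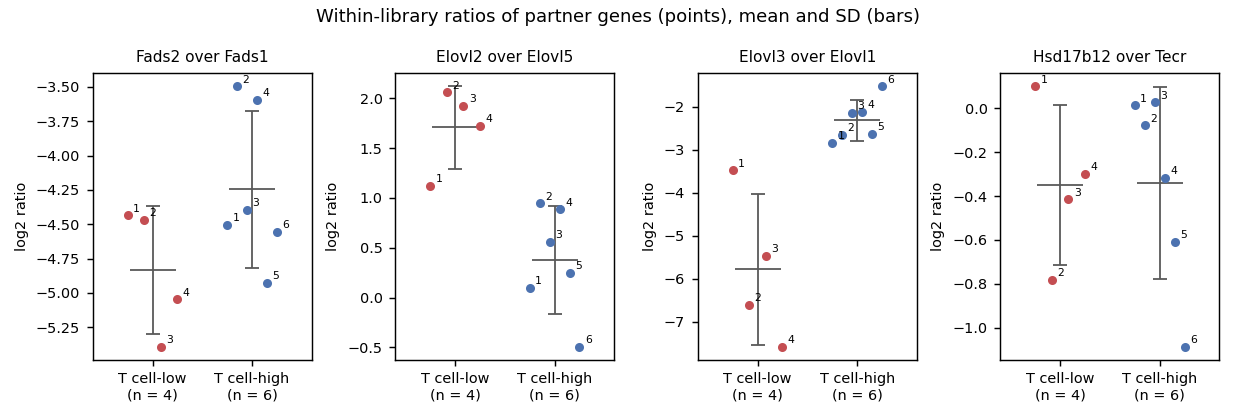
Log2 ratio of partner genes within each library, from scaled counts plus 1 (y axis), T cell-low libraries in red on the left and T cell-high libraries in blue on the right, numbered by replicate; bars are the mean and SD (n = 4 and n = 6). Elovl2 over Elovl5 was higher in all 4 T cell-low libraries (1.12 to 2.06) than in the 6 T cell-high libraries (-0.49 to 0.95), whereas Hsd17b12 over Tecr overlapped between the groups.

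Among the elongases of saturated and monounsaturated chains, Elovl3 fell in T cell-low livers and Elovl1 did not pass. Elovl3 (chromosome 19, 46131897 to 46135694, plus strand) had 34.7, 2.22, 9.69 and 0 scaled counts in T cell-low 1 to 4, against 34.8, 84.9, 71.2, 96.4, 49.0 and 126 in T cell-high 1 to 6. The groups did not overlap, but T cell-low 1 and T cell-high 1 were almost equal. The means were 11.6 ± 15.9 and 77.0 ± 32.9 (T cell-low and T cell-high; log2 fold change -3.60, SE 0.78, adjusted p = 0.0192). As T cell-low 4 is listed at 0, the size of this change rests on the pseudocount of 1, and it was -3.92 with 0.5 and -2.66 with 5. The call was lost when T cell-low 2 (adjusted p = 0.0749) or T cell-low 4 (-2.74, adjusted p = 0.0555) was removed, and with T cell-high 1, 3, 5 and 6 left out (-3.95, SE 1.24, adjusted p = 0.527).

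Fat tissue also expresses Elovl3. The 5 adipocyte markers summed to 109, 93.3, 73.6 and 339 scaled counts in T cell-low 1 to 4, against 33.1, 56.7, 72.1, 37.1, 287 and 85.2 in T cell-high 1 to 6. The sum in T cell-low 4 was made up of Fabp4 (264) and Cidec (74.9), with Adipoq, Plin1 and Lep listed at 0 there, and Adipoq was highest in T cell-high 5 (149). Their part in the Elovl3 values was not tested. Pitx3, which overlaps the 3′ end of Elovl3 on the other strand, is listed at 0 in all 10 libraries.

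Elovl1 (chromosome 4, 118428093 to 118432953, plus strand) had 397, 312, 472 and 190 scaled counts in T cell-low 1 to 4, against 255, 542, 319, 424, 310 and 365 in T cell-high 1 to 6. Its groups overlapped over most of their range (log2 fold change -0.14, SE 0.28, adjusted p = 0.743). Its sign turned to 0.12 without T cell-low 4 and to 0.03 with library weights. With T cell-high 1, 3, 5 and 6 left out it was -0.56 (SE 0.40, adjusted p = 0.626 in limma). Cdc20, a cell cycle gene, overlaps the 3′ end of Elovl1 on the opposite strand and had 1.05 to 59.6 scaled counts. No source used here says whether the counting used strand.

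Elovl3 fell relative to Elovl1 as well. The log2 ratio of Elovl3 over Elovl1 was -3.48, -6.60, -5.47 and -7.58 in T cell-low 1 to 4 and lay between -2.84 and -1.53 in the 6 T cell-high libraries. The difference of means was -3.46 (p = 0.00476, the smallest that 210 assignments can give, adjusted p = 0.019 over 4 ratios, exact two-sided permutation test). Its size rests on the pseudocount too, as Elovl3 is listed at 0 in T cell-low 4. It was -3.78 with a pseudocount of 0.5 and -2.52 with 5.

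The reductases did not pass the test. Hsd17b12 encodes the enzyme of the first reduction in each elongation cycle and Tecr that of the last. Hsd17b12 (chromosome 2, 94032689 to 94157964, minus strand) had 1655.5, 583, 1314 and 500.3 scaled counts in T cell-low 1 to 4, against 1397, 2277, 1401, 1713, 1019 and 954 in T cell-high 1 to 6. T cell-low 2 and 4 lay below every T cell-high library, and T cell-low 1 and 3 lay within their range (log2 fold change -0.65, SE 0.35, adjusted p = 0.208; without T cell-low 1, -0.94, SE 0.33, adjusted p = 0.0459).

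Tecr (chromosome 8, 83571698 to 83607971, minus strand) had 1544, 1003, 1752 and 615 scaled counts in T cell-low 1 to 4, against 1383, 2402, 1374, 2132, 1553 and 2028 in T cell-high 1 to 6. Again T cell-low 2 and 4 alone lay below the T cell-high range (log2 fold change -0.64, SE 0.29, adjusted p = 0.137). With T cell-high 1, 3, 5 and 6 left out, the log2 fold change was -1.145 (SE 0.50) for Hsd17b12 and -0.99 (SE 0.42) for Tecr. The adjusted p in limma was then 0.534 and 0.529, so the distance of the reductases from Fads1 and Elovl5 depended on these libraries. Of its 3′ words 7.41% are shared with other annotated genes. For the log2 ratio of Hsd17b12 over Tecr, T cell-low livers averaged -0.35 ± 0.36 and T cell-high livers -0.34 ± 0.44, a difference of -0.01 (p = 0.962, adjusted p = 0.962 over 4 ratios, exact two-sided permutation test).

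**Figure D4:**
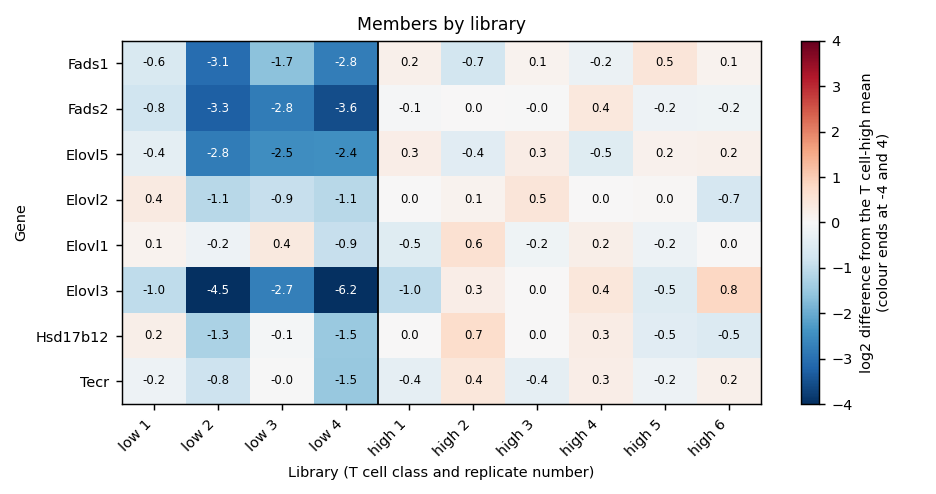
Log2 difference of each gene (rows) in each library (columns, T cell-low on the left of the line) from the mean of the T cell-high libraries, from scaled counts plus 1; blue is lower and red higher. T cell-low 1 is pale, with a median of -0.30 over the 8 genes, against -2.03, -1.29 and -1.99 in T cell-low 2, 3 and 4.

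Across libraries the 8 genes moved least in T cell-low 1. Relative to the T cell-high mean, the median log2 difference was -0.30 in T cell-low 1, with 5 of 8 genes below that mean. It was -2.03, -1.29 and -1.99 in T cell-low 2, 3 and 4, with 8, 7 and 8 genes below it, and it ran from -0.20 to 0.26 in the T cell-high libraries. In T cell-low 3, Fads1, Fads2, Elovl5 and Elovl3 lay well below the T cell-high mean on the log2 scale (-1.65, -2.80, -2.48 and -2.75), whereas Elovl1 was 0.40 above it, and Hsd17b12 and Tecr were near it (-0.09 and -0.01).

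The genes nearest in profile were found by the root mean square difference of log2 values over the 10 libraries, each gene centred on its own mean, among 7744 other genes with a mean of at least 50. Nearest to Fads1 were Mtfp1 (0.228), Dhrs7 (0.228) and Fggy (0.23). Elovl5 was 30th in nearness to Fads1 (0.342), and Fads2, its neighbour on the chromosome, was 252nd (0.558). Nearest to Elovl5 were Nme3 (0.207), Psmb8 (0.209) and Hsdl2 (0.218), with Fads1 25th. Nearest to Fads2 were Cyp2b9 (0.259), Vnn1 (0.338) and 1810008I18Rik (0.367), with Elovl5 40th and Fads1 53rd. Elovl3 had no close neighbour, its nearest being 9030619P08Rik (0.613), Bdh1 (0.621) and Hdhd3 (0.665). These distances describe 10 libraries that share their group structure.

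The surrounding pathway was covered by 59 genes in 8 lists, of which 51 could be tested. Of these, 11 fell in T cell-low livers and 0 rose, which is 21.6% beside the 7.39% of all genes tested that fell, and their median log2 fold change was -0.40. At an unadjusted p below 0.05 in limma, 20 were lower and 1 higher, beside 3830 of all 11110 genes tested in either direction. The 20 included 3 of 5 other elongation enzymes, 5 of 7 peroxisomal genes, 3 of 5 electron donors and 5 of 11 regulators. The median log2 fold changes of these lists were -1.09, -0.76, -0.74 and -0.70. Medians were -0.23 for ceramide synthesis, -0.22 for acyl-CoA synthetases, -0.03 for incorporation and transport and 0.32 for other desaturases. Removal of T cell-low 1 gave 18 pathway genes that fell and 3 that rose, and removal of T cell-low 2, 3 or 4 gave 0, 8 and 4 that fell. Without T cell-low 2, 16 were lower at an unadjusted p below 0.05 in limma, beside 2622 of 11102 genes tested in either direction. Of all genes tested, 17.2%, 0.613%, 3.1% and 0.965% were called lower without T cell-low 1, 2, 3 and 4, and 2.1% to 2.4% without T cell-high 1, 3, 5 or 6, so the counts over all genes moved as well. The number of pathway genes that fell was 5 when T cell-high 1, 3 or 5 was removed, 7 for T cell-high 6, and 0 with all 4 of these left out together. In that last setting 9 were lower at an unadjusted p below 0.05 in limma, beside 1027 of 11057 genes tested in either direction.

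**Figure D5:**
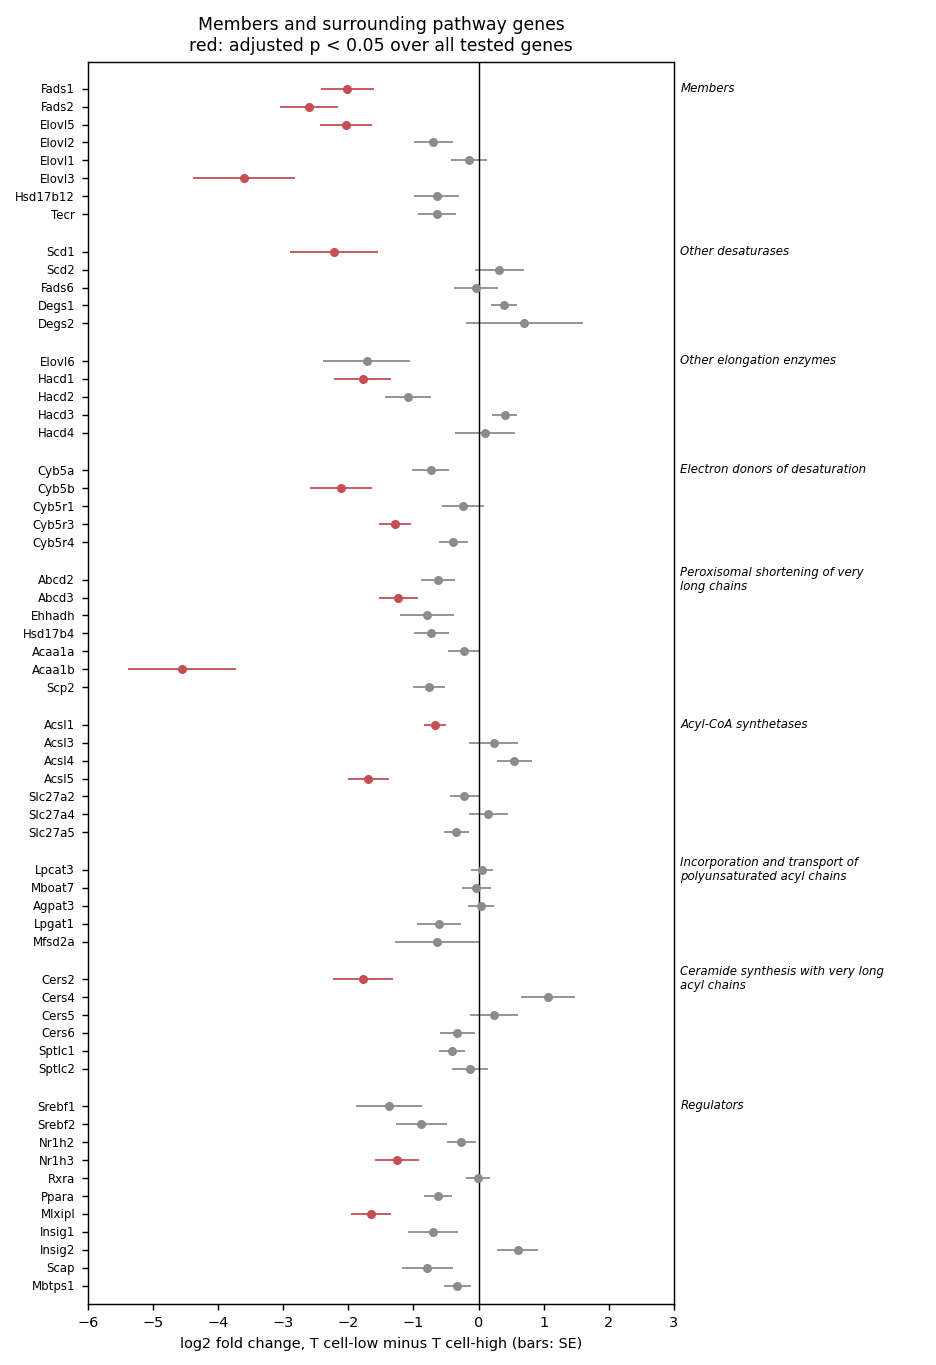
Log2 fold change, T cell-low over T cell-high (x axis; bars are the SE), of the 8 genes and of the 51 tested pathway genes by list (rows); red marks an adjusted p below 0.05 over all genes tested. The red points, 4 of the 8 genes and 11 of the pathway genes, lie left of 0, from Acaa1b (-4.55) to Acsl1 (-0.67), and no point right of 0 is red.

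Of 5 other desaturases tested, 1 fell. Scd1, the main stearoyl-CoA desaturase of the liver, had 17059, 1202, 5089 and 1047 scaled counts in T cell-low 1 to 4, and 6652 to 30104 in the T cell-high group (median of the list 0.32; Scd1 log2 fold change -2.22, SE 0.67, adjusted p = 0.0485). T cell-low 1 lay within the T cell-high range for Scd1, and the remaining 3 lay below it. Of the 5 other elongation enzymes tested, 1 fell, the dehydratase gene Hacd1 (T cell-low livers 29.5 ± 21.6, T cell-high livers 92.5 ± 31.5, log2 fold change -1.78, adjusted p = 0.0265). Desaturases draw electrons from cytochrome b5, and 2 of the 5 tested genes of cytochrome b5 proteins and their reductases fell. Cyb5r3, the cytochrome b5 reductase, had 1817 ± 722 against 4197 ± 609 (log2 fold change -1.28, adjusted p = 0.0137), and Cyb5b, the cytochrome b5 of the outer mitochondrial membrane, had 650.2 ± 601 against 2013.5 ± 373 (-2.12, adjusted p = 0.0204). Both were without overlap between the groups. Whether Cyb5b serves the desaturases was not tested.

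Peroxisomes shorten very long chains, which includes the last step towards docosahexaenoic acid, and 2 of the 7 genes of that list fell. Acaa1b, a thiolase gene, was at 5016 scaled counts in T cell-low 1 and between 63.8 and 308 in T cell-low 2, 3 and 4, against 7335 to 16338 in the T cell-high group (log2 fold change -4.55, SE 0.83, adjusted p = 0.012). The transporter gene Abcd3 fell too (-1.23, adjusted p = 0.0247), with overlap between the groups. Acaa1b kept its groups apart, through the gap between T cell-low 1 and the lowest T cell-high library.

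Of 7 tested acyl-CoA synthetase genes 2 fell, Acsl5 (T cell-low livers 516 ± 357, T cell-high livers 1467 ± 251, log2 fold change -1.69, adjusted p = 0.0123) and Acsl1 (2917 ± 239 and 4662 ± 671, -0.67, adjusted p = 0.0293). Of 5 genes listed for placing acyl chains, among them polyunsaturated ones, in lipids or carrying them, 0 passed in limma. None had an unadjusted p below 0.05, and the median log2 fold change was -0.03. Lpgat1, the one of highest mean, averaged 1012 ± 557 (T cell-low) and 1347 ± 189 (T cell-high). Whether its product acts on polyunsaturated chains was not tested. Of 6 genes of ceramide synthesis 1 fell, Cers2, whose product uses very long acyl chains (424 ± 298 and 1426 ± 712, -1.77, adjusted p = 0.031). In Cers2, as in Fads1 and Elovl5, T cell-high 2 and 4 had the lowest T cell-high values (523 and 691, against 1308 to 2307).

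Of 11 regulators 2 fell. Mlxipl, the carbohydrate-responsive factor ChREBP, had 347, 118, 256 and 112 scaled counts in T cell-low 1 to 4, and 492 to 710 in the T cell-high group (log2 fold change -1.65, SE 0.30, adjusted p = 0.0122). Nr1h3, which encodes the oxysterol receptor LXR alpha, had 348 ± 234 and 747 ± 199 (-1.25, adjusted p = 0.0335). Srebf1, whose product SREBP1 is known to act on Fads1, Fads2 and Elovl5 genes, did not pass and is named after its values were seen (28.2 ± 23.2 and 62.1 ± 26.4 scaled counts, T cell-low and T cell-high; log2 fold change -1.37, SE 0.51, adjusted p = 0.0827).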

How the data were processed

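RNA was measured in 10 mouse liver libraries, grouped by sample title, with each column matched by its label. Libraries were made with a QuantSeq FWD kit, per the labels' protocols. STAR, DESeq2 and the build mm10 are named, without versions, per the submitters' processing notes; these name no counter or annotation. Deposited values are a signal per gene, counts scaled by the authors to a common depth. Between 10.1% and 20.2% of low values per library were whole multiples of its commonest step (within 0.02), so whole reads were not recovered and the test planned for whole counts was not used. Genes with a mean of at least 10 were compared as log2(value + 1) with limma 3.58.1 (R 4.3.3, group as the only term, moderated variance with a mean trend, 13.1 degrees of freedom, two-sided), Benjamini-Hochberg adjusted over 11110 genes and called below 0.05. Fold changes on this scale understate low genes. Ratios used exact permutation. Members, lists and tests were chosen with earlier results of these data known; some genes of these lists are not reported here and were left out of the list counts. The text names all members, up to 4 called genes of each pathway list (or the 1 of highest mean) and the 3 nearest profiles of each called member. Positions and 3′ ends (last 400 bases) are from GENCODE vM21. The limma test was checked on simulated data, and the permutation test on a made-up set of values with a known answer. Alternatives covered scaling, pseudocount, filter, robust variance, library weights, replicate number as a block and leaving out libraries. Figures used matplotlib 3.10.9.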

Additional observations from a re-analysis of the deposited data

Results flagged for a closer look

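Single libraries stood apart from the others of their group in 8 of 40 sets of gene and group examined, by the gap to the nearest library over the range of the group. Chance gives about 1 in 20 for independent sets of normally distributed values. These sets share the same 10 libraries and are not independent, and scaled counts need not be normally distributed. In 6 of the 8 the library was T cell-low 1, each time as the highest of the 4 T cell-low libraries. It had 61.7 scaled counts of Fads2, 1441 of Elovl5, 3139 of Elovl2, 5016 of Acaa1b, 1047.5 of Acsl5 and 697 of Nr1h3. The others were T cell-high 4 for Fads2 (145, the highest of 6) and T cell-high 2 for Acaa1b (16338, the highest of 6). The cause was not tested.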

How the results depend on the processing

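Fads1, Fads2, Elovl5 and Elovl3 fell, with an adjusted p below 0.05, under both rescalings, both pseudocounts, both looser filters, the robust option and library weights. Rescaling to equal totals gave a median of all genes of -0.115, against 0.003, and a share of lower calls of 71.7%, against 57.8%. Library weights gave 3266 called genes against 1420, pathway counts of 19 lower and 2 higher, a call for Elovl2 (-0.91, adjusted p = 0.0302) and a value of 0.030 for Elovl1. The deviations of same-numbered libraries from their group means correlated with r of 0.104, 0.211, -0.0988 and -0.151. Of the 4 T cell-low libraries, 1 correlated best with its own number. The labels do not say whether the numbers pair libraries, and so few values cannot decide it. The replicate block gave 193 called genes, 4 pathway genes lower and 3 members lower, Elovl3 missing the threshold (-3.53, adjusted p = 0.0835). With T cell-high 1, 3, 5 and 6 left out, 0 members, 0 pathway genes and 0 genes of the table were called in limma (1027 at an unadjusted p below 0.05), and the ratio differences were 0.79 for Elovl2 over Elovl5 and -3.39 for Elovl3 over Elovl1 (adjusted p = 0.178 each, in a design that cannot pass). Leaving out 1 library in turn, 1 to 6 members were lower, 109 to 3633 genes were called, 0 to 18 pathway genes were lower and 0 to 3 higher. The ratio difference then ran from -0.16 to 0.14 for Hsd17b12 over Tecr, from -0.73 to -0.40 for Fads2 over Fads1, from 1.16 to 1.53 for Elovl2 over Elovl5 and from -4.23 to -2.86 for Elovl3 over Elovl1. Elovl1 ran from -0.32 to 0.12. The cause of these moves was not tested. Read depth is unknown, which limits most the low values of Elovl3 and Fads2.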
